A study of Mus musculus with 8 samples.

Results

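The genes that encode mitochondrial ribosomal proteins were examined in mouse embryonic ventricles. Members were the protein-coding genes whose symbol begins with Mrpl or Mrps followed by a digit, and pseudogenes were left out. This gave 78 of the 53465 genes in the deposited table, 49 named for the large subunit (Mrpl) and 29 for the small subunit (Mrps). All 78 passed the filter on low counts, as did 15388 genes in all.

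RNA-seq was made from heart ventricles at embryonic day 15.5, with 4 libraries labelled WT and 4 libraries whose genotype is given as Nrg-1flox;Cdh5-CreERT2, called Flox-labelled libraries here. In this line a tamoxifen-activated Cre recombinase, driven by the endothelial Cdh5 promoter, is meant to excise floxed sequence of Nrg1, which encodes the growth factor neuregulin-1. The comparison asks how ventricular transcripts differ when Nrg1 is targeted in endothelial cells. The series' design text gives 1 ventricle per replicate, which the sex-linked transcripts below go against. The tamoxifen dose and time, the strain, and whether WT embryos carried Cre or received tamoxifen are not given in the sources used here. Cre acts in endothelial cells, whereas the RNA came from whole ventricles, so a difference within endothelial cells is diluted by the RNA of all others. In such bulk samples, fewer cells of a type and less RNA per cell cannot be told apart.

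Mitochondria hold their own ribosomes, which translate the few mRNAs of the mitochondrial genome into core subunits of the oxidative phosphorylation complexes. The ribosomal RNAs of these particles are mitochondrially encoded, whereas every protein is made from nuclear genes and imported. Some of the proteins descend from bacterial ribosomal proteins and others were gained in mitochondria. The heart depends on this translation because cardiomyocytes rely increasingly on oxidative phosphorylation, and inherited defects of several mitochondrial ribosomal proteins cause cardiomyopathy.

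The libraries held between 16761763 and 24144272 expected counts, with Flox-labelled library 4 the smallest. The targeted gene did not check the labels. For Nrg1 the WT libraries had 4.87 ± 0.64 CPM (counts scaled to library size, mean ± SD, n = 4) and the Flox-labelled libraries 6.17 ± 0.61 CPM, a log2 fold change of 0.34 (95% interval 0.08 to 0.60, edgeR adjusted p = 0.311), so its transcript was not lower where it was meant to be deleted. A count over the whole gene includes exons outside the floxed part. Of the 8 libraries, 7 held both Xist, at 103 CPM or more, and Y-linked transcripts summing to 42.9 CPM or more, and WT library 4 held Y-linked transcripts at 171.2 CPM with Xist at 0.176 CPM. Xist comes from female cells and Y-linked transcripts from male cells, so libraries with both do not look like RNA of 1 embryo, and what a replicate holds is unsure. WT libraries 1 to 4 had a Y-linked sum of 114.9, 69.3, 121.9 and 171.2 CPM, and Flox-labelled libraries 1 to 4 one of 68.3, 42.9, 58.5 and 119.9 CPM. All 4 Y-linked genes had a log2 fold change below 0 (median −0.76, 3 at an unadjusted p below 0.05, 0 called by edgeR), and the sums of the groups overlapped. The libraries carried the markers of ventricular tissue. The sum of 12 cardiomyocyte genes was 49063 to 55795 CPM, that of 10 endothelial genes was 1304 to 1444 CPM, and that of 6 hepatocyte genes was 0.545 to 2.01 CPM. All directions below are those of the Flox-labelled libraries against WT, and rest on the labels.

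Sequences around the start sites were read to see what the members share beyond their names. Promoter windows of 300 bases, from 250 bases before to 50 after the start site (RefSeq, GRCm38.p6), were found for 69 of the 78 members. Each was searched on both strands for the letters of sites of factors known to act on nuclear genes of mitochondria. The core of the NRF1 site (GCGCATGCG) was found in 7 members, 10.1%, against 3.85% of the 11208 tested genes with a window. An ETS site (CCGGAAGT), as bound by GABPA, was found in 12 members, 17.4%, against 8.49%. A core YY1 site (AAGATGGCG) was found in 8 members, 11.6%, against 3.29%. Most of the YY1 matches, those of Mrpl35, Mrpl37, Mrpl42, Mrps18a, Mrps24 and Mrps27, lay after the start site. So did the ETS match of Mrpl52. One or more of these were in 26 members, 37.7%, against 14.7% of tested genes. The SP1 letters GGGCGG were in 49.3% of members and 67.3% of tested genes, and TATAAA was in 7.25% and 9.15%. Among large-subunit members, 41.9% of 43 held an NRF1, ETS or YY1 match, and 30.8% of 26 small-subunit members did. The NRF1 core was in 6 large-subunit members (14.0%) and 1 small-subunit member (3.85%, the share of all tested genes). The ETS site was in 18.6% of large-subunit and 15.4% of small-subunit members, and the YY1 core in 9.3% and 15.4%. The members not found in the table were Mrpl4, Mrpl13, Mrpl15, Mrpl19, Mrpl38, Mrpl54, Mrps28, Mrps34 and Mrps35. None of these strings contains another. A match is a description of the letters and does not show that a factor binds.

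The start regions of 5 members are shown, read 5′ to 3′ on the strand of the gene, with a match in capitals. Mrpl57 and Mrpl52 are the members with the smallest p-values, Mrpl3 and Mrps22 are linked to cardiomyopathy and hold an ETS match close to the start, and Mrpl17 is the member with the lowest level per kilobase and holds an NRF1 core match. The 300-base window of Mrpl57 holds no NRF1, ETS or YY1 match, and the stretch shown is the 48 bases before its RefSeq start, next to the divergent gene Ska3.
Mrpl57, chr14:57826191-57826238, plus strand: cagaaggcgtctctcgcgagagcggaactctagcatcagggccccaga
Mrpl52, chr14:54426819-54426918, plus strand: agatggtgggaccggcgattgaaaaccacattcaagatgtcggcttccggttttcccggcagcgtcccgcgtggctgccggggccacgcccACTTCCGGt
Mrpl3, chr9:105053178-105053267, plus strand: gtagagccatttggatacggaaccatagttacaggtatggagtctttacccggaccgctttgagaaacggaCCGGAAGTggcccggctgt
Mrps22, chr9:98601680-98601769, minus strand: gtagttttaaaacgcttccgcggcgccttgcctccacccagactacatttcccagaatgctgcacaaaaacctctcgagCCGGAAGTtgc
Mrpl17, chr7:105811088-105811177, minus strand: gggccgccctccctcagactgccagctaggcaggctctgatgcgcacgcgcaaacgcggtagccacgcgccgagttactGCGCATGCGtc

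A head-to-head layout was more frequent among the members than among tested protein-coding genes, though most members did not have it. A protein-coding gene on the opposite strand started within 1000 bp, head to head, at 33 of 78 members (42.3%), against 15.2% of 13719 tested protein-coding genes. The share was 49.0% for the large subunit and 31.0% for the small subunit. Some partners, picked here by name, belong to the same organelle, whereas most, such as Hira, Psma2 and Tcp1, are not known for a role there. The share of mitochondrial partners was not compared with that of other genes. Mrps12 lay beside Sars2, the mitochondrial seryl-tRNA synthetase, and Mrpl43 beside Twnk, the mitochondrial DNA helicase. Mrpl36 lay beside Ndufs6, a subunit of complex I, and Mrps27 beside Ptcd2, an RNA-binding protein of mitochondria. Mrpl46 of the large subunit and Mrps11 of the small subunit, both on chromosome 7, overlapped head to head by 412 bp. The members were spread over 17 chromosomes, with at most 11 on one of them, chromosome 11.

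Transcripts of all 78 members were detected in these ventricles. Their summed counts made up 0.347% to 0.372% of a library. Per kilobase of the principal transcript, the median level was 29.6 CPM per kb over the large-subunit members and 26.6 CPM per kb over the small-subunit members, against 8.0 CPM per kb over all tested protein-coding genes. Levels spanned 4.61 to 218.6 CPM per kb in the large subunit and 6.68 to 128.2 CPM per kb in the small subunit, although the proteins enter the particle in single copies with few exceptions. The order depends on the length used. With the union of all exons in place of the principal transcript, a choice made after seeing the data, Spearman's rho between the orders was 0.769 over the 78 members, and the median levels were 19.7 and 12.4 CPM per kb.

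At the top of the large subunit by level per kilobase were Mrpl42 (218.6 CPM per kb), Mrpl12 (122.3 CPM per kb) and Mrpl33 (122.2 CPM per kb). Mrpl12 encodes the stalk protein that recruits translation factors, and was also the first of the 78 members by union length, whereas Mrpl33 was 62nd. The lowest large-subunit levels were those of Mrpl17 (4.61 CPM per kb), Mrpl1 (7.77 CPM per kb) and Mrpl35 (8.37 CPM per kb), and Mrpl1 encodes the protein of the L1 stalk, where tRNA leaves. At the top of the small subunit were Mrps21 (128.2 CPM per kb), Mrps36 (71.6 CPM per kb) and Mrps23 (56.2 CPM per kb). Mrps36 keeps its ribosomal name although its protein is now known as a component of the 2-oxoglutarate dehydrogenase complex. The lowest small-subunit levels were those of Mrps26 (6.68 CPM per kb), Mrps25 (8.26 CPM per kb) and Mrps17 (9.73 CPM per kb).

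**Figure D1:**
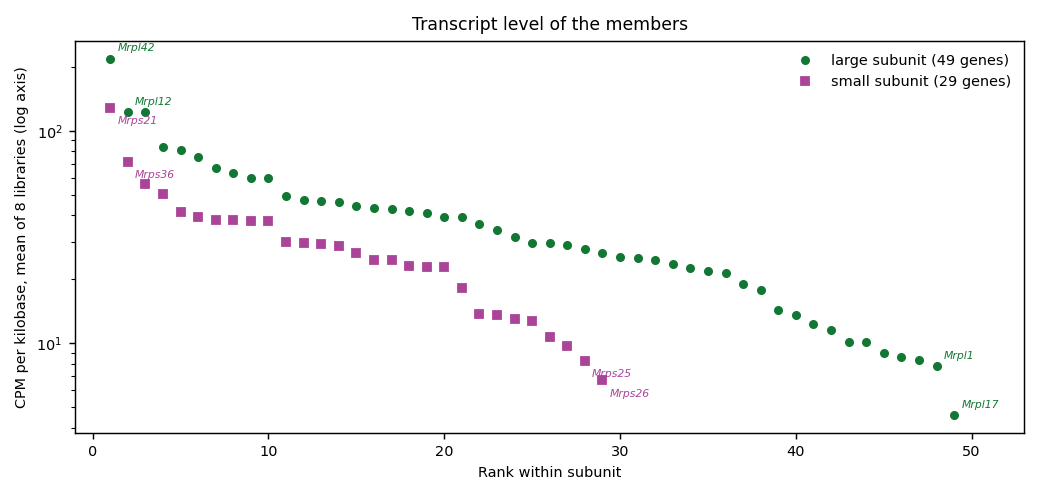
Level of each member per kilobase of its principal transcript (CPM per kb, mean of 8 libraries, log axis), ranked within the large subunit (circles, 49 genes) and the small subunit (squares, 29 genes), with the highest and lowest 2 of each named. The large subunit runs from 218.6 down to 4.61 CPM per kb and the small subunit from 128.2 to 6.68 CPM per kb.

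Between the groups the members differed little. No member was called higher and none lower by edgeR's quasi-likelihood test at a false discovery rate (FDR) of 0.05, where 0.526% of all 15388 tested genes were called, 0.312% higher and 0.214% lower in Flox-labelled libraries. At an unadjusted p below 0.05 there were 11 of 78 members (14.1%), against 10.5% of all tested genes. By direction these were 9 members higher and 2 lower, against 789 higher and 833 lower of all 15388 tested genes. The members thus leaned to the higher side more than all tested genes did. The likelihood ratio test called 3 members higher, Mrpl34, Mrpl52 and Mrpl57, where it called 1.57% of all 15388 genes. The quasi-likelihood test with no filter on low counts called these and Mrpl37, where it called 1.15% of 29350 genes. DESeq2 and limma voom called 0. The median log2 fold change was 0.01 over all members, with 43 above 0 and 35 below, and −0.001 over all tested genes. These signs are mostly of values close to 0, and 42 of the 78 members changed sign under at least 1 of 21 alternatives.

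The measurement was tight enough to bound most members. The median standard error of a member's log2 fold change was 0.05, against 0.06 over all tested genes, and the members' median CPM, not scaled to length, was 41.5 against 21.2. For 75 of the 78 members (96.2%) the 95% interval of the fold change lay within 0.32 of 0 on the log2 scale, against 66.0% of all tested genes. The exceptions were Mrpl57, Mrps34 and Mrpl23. Within 0.2 on the log2 scale lay the intervals of 63 members (80.8%), against 47.6% of all tested genes. The fold changes were also less spread, with an interquartile range of 0.07 for members and 0.12 for all tested genes on the log2 scale. This was not particular to the members. The interquartile range was 0.039 for cytosolic ribosomal protein genes and 0.043 for nuclear genes of complex I subunits. Intervals within 0.32 of 0 made up 92.6% and 97.2% of these sets.

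**Figure D2:**
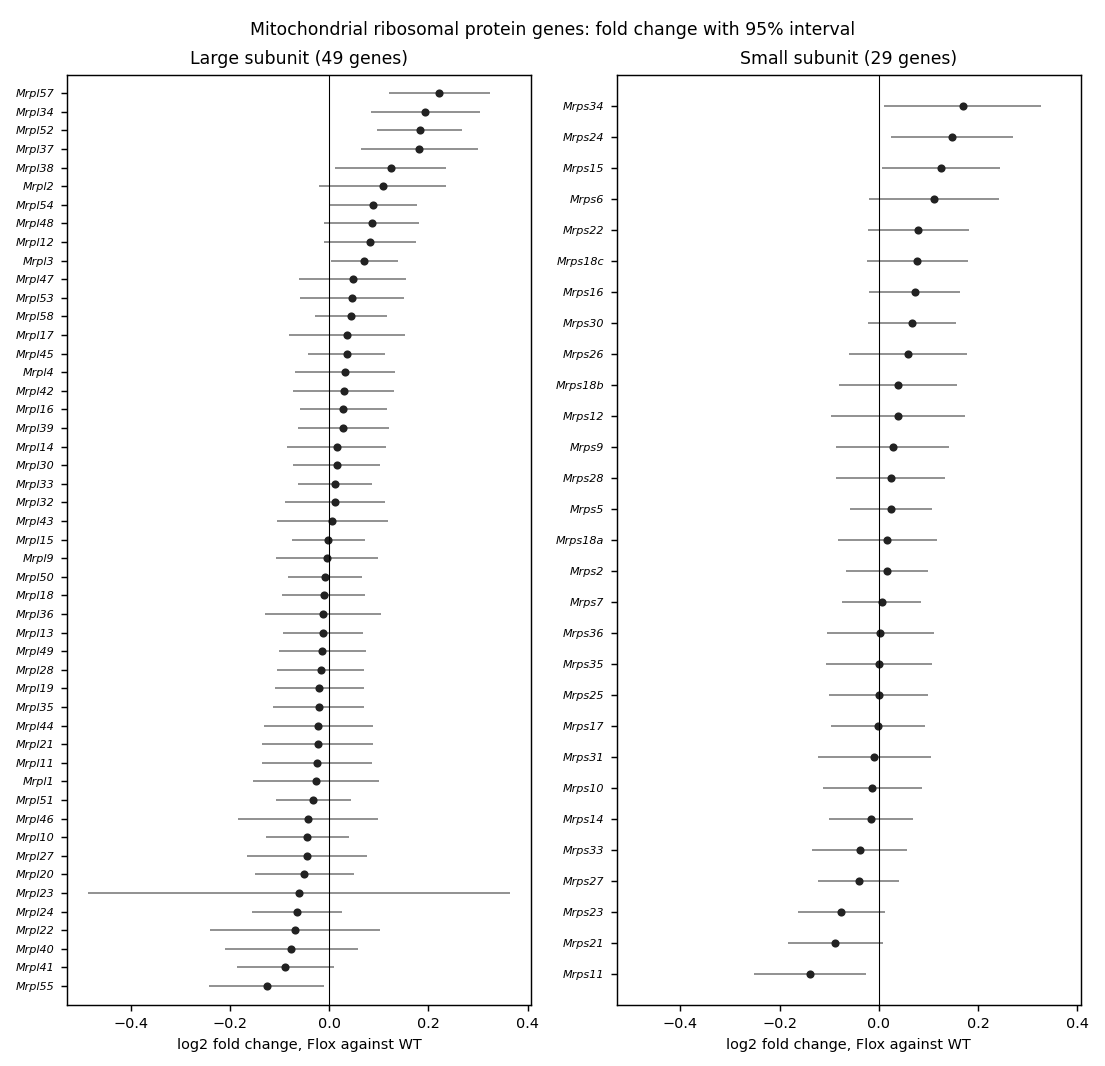
Fitted log2 fold change of each member (point) with its 95% interval (line), Flox-labelled against WT libraries, 4 in each group, for the large subunit (left, 49 genes) and small subunit (right, 29 genes). Points run from −0.14 for Mrps11 to 0.22 for Mrpl57, and the widest interval is that of Mrpl23, −0.49 to 0.36.

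In the large subunit, 24 members lay above 0 and 25 below. The smallest p-value of all members was that of Mrpl57 (ENSMUSG00000021967, chr14:57826234-57829296, plus strand), a small protein gained in mitochondria. WT libraries 1 to 4 had 22.7, 23.1, 23.7 and 22.2 CPM of Mrpl57, and Flox-labelled libraries 1 to 4 had 26.6, 27.6, 27.3 and 25.2 CPM. Every Flox-labelled library lay above every WT library. The log2 fold change was 0.22 (SE 0.05, 95% interval 0.12 to 0.32), a fold of 1.17, with an edgeR adjusted p of 0.0598, which misses the threshold. Without Flox-labelled library 4 it was 0.25 with an edgeR adjusted p of 0.0424, and with the sum of Y-linked transcripts added to the design it was 0.17 with an edgeR adjusted p of 0.360. Over 21 alternatives its adjusted p ran from 0.00896 to 0.360.

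Mrpl52 (ENSMUSG00000010406, chr14:54426909-54429756, plus strand), a protein of the central protuberance, which contacts the head of the small subunit, had the next smallest p-value. It was at 33.7, 33.0, 31.5 and 32.9 CPM in WT and at 36.4, 38.0, 38.1 and 36.1 CPM in Flox-labelled libraries, again with no overlap. The log2 fold change was 0.18 (SE 0.04), with an edgeR adjusted p of 0.0635.

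Mrpl34, a descendant of a bacterial ribosomal protein, was at 41.6, 36.0, 35.7 and 38.7 CPM in WT and at 42.4, 42.5, 45.7 and 43.3 CPM in Flox-labelled libraries. These groups did not overlap either, though WT library 1 came within 1 CPM of the Flox-labelled range. The log2 fold change was 0.19 (SE 0.05, edgeR adjusted p = 0.134). Mrpl37, another protein gained in mitochondria, was at 61.2, 55.2, 52.7 and 50.4 CPM in WT and at 61.4, 62.5, 65.6 and 59.1 CPM in Flox-labelled libraries. Its groups overlapped through WT library 1, and its log2 fold change was 0.18 (SE 0.05, edgeR adjusted p = 0.207).

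**Figure D3:**
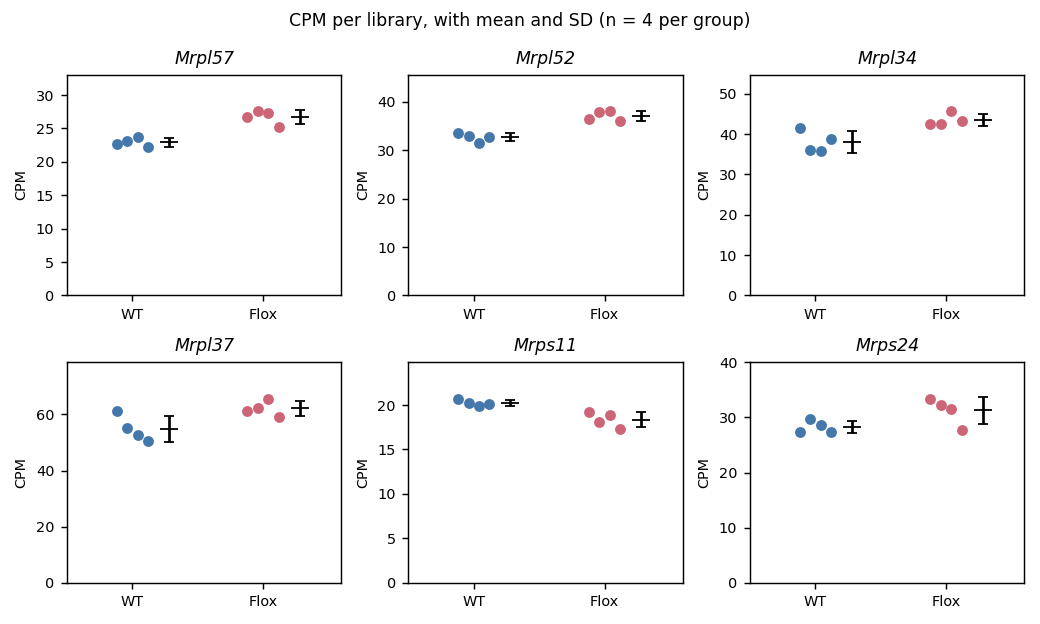
CPM per library (points, in the order of replicates 1 to 4) with mean and SD (bar, n = 4) for Mrpl57, Mrpl52, Mrpl34, Mrpl37, Mrps11 and Mrps24, with the vertical axis from 0. The groups do not overlap for Mrpl57, Mrpl52, Mrpl34 and Mrps11, and overlap for Mrpl37 and Mrps24.

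Groups that did not overlap were seen for 3 members in the higher direction (Mrpl34, Mrpl52 and Mrpl57), where 3.07% of all tested genes had such groups, and for 1 in the lower direction (Mrps11), where 2.98% had them. Counts of this size among 78 genes lie near those backgrounds and are not read as a result about the members.

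The other large-subunit members with small p-values had differences of at most 0.13 on the log2 scale. Mrpl38, of the central protuberance, was at 46.3 ± 2.9 CPM in WT and at 50.4 ± 3.0 CPM in Flox-labelled libraries, a log2 fold change of 0.12 (edgeR adjusted p = 0.421). In the lower direction, Mrpl55 was at 28.3 ± 0.47 and 25.9 ± 1.9 CPM, a log2 fold change of −0.13 (edgeR adjusted p = 0.429). Mrpl41 was at 37.1 ± 1.2 and 34.9 ± 1.8 CPM, a log2 fold change of −0.09 (edgeR adjusted p = 0.538). Mrpl24, at the exit of the peptide tunnel, had −0.07 and Mrpl40, of the central protuberance, −0.08, and both intervals held 0.

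The stalk of the large subunit, where elongation factors dock, was represented by Mrpl10, Mrpl11 and Mrpl12. Mrpl12 was at 160.3, 153.8, 155.7 and 155.8 CPM in WT and at 168.7, 169.5, 173.9 and 150.1 CPM in Flox-labelled libraries. Its lowest and highest libraries were both Flox-labelled, and its log2 fold change of 0.08 (95% interval −0.01 to 0.18) did not pass the test (edgeR adjusted p = 0.544). Mrpl10 and Mrpl11 lay at −0.04 and −0.02. Of 6 members listed for the peptide tunnel and its exit, Mrpl4, Mrpl22, Mrpl23, Mrpl24, Mrpl45 and Mrpl47, 3 lay above 0 and 3 below. Their median was −0.01, and the sign of 5 changed under at least 1 alternative. The 6 listed here for the central protuberance, not a full list, were also split 3 and 3, with a median of 0.04. These were Mrpl18, Mrpl38, Mrpl40, Mrpl46, Mrpl48 and Mrpl52.

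In the small subunit, 19 members lay above 0 and 10 below. Mrps11 (ENSMUSG00000030611, chr7:78783119-78792989, plus strand), on the platform that contacts mRNA at the exit site, had the smallest p-value. It was at 20.7, 20.2, 19.9 and 20.1 CPM in WT and at 19.2, 18.1, 18.9 and 17.3 CPM in Flox-labelled libraries, so every Flox-labelled library lay below every WT library. The log2 fold change was −0.14 (SE 0.05, 95% interval −0.25 to −0.02, edgeR adjusted p = 0.358). Its head-to-head neighbour Mrpl46, of the large subunit, was at 26.1 ± 2.0 and 25.3 ± 1.8 CPM, a log2 fold change of −0.04 (edgeR adjusted p = 0.887). Mrpl46 and Mrps11 share 173 exonic bases on opposite strands.

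Mrps24, the homolog of bacterial S3 at the mRNA entry, was at 27.4, 29.7, 28.7 and 27.3 CPM in WT and at 33.4, 32.3, 31.6 and 27.8 CPM in Flox-labelled libraries. Flox-labelled libraries 1 to 3 lay above WT and library 4 lay within it, with a log2 fold change of 0.15 (SE 0.06, edgeR adjusted p = 0.366). Mrps34 was at 23.4, 19.4, 24.7 and 24.3 CPM in WT and at 27.3, 25.3, 26.5 and 24.1 CPM in Flox-labelled libraries, with overlap through library 4. Its log2 fold change was 0.17 (SE 0.07, edgeR adjusted p = 0.438). Reads of Mrps34 are uncertain, since 37.0% of its exonic bases are shared with Nme3 on the same strand and 63.4% with Mapk8ip3 on the opposite one. Mrps15 was at 33.7 ± 2.7 and 36.8 ± 1.3 CPM (log2 fold change 0.13, edgeR adjusted p = 0.441), and Mrps6 at 24.2 ± 0.68 and 26.1 ± 2.2 CPM (log2 fold change 0.11, edgeR adjusted p = 0.569). Mrps16 was at 31.9 ± 1.4 and 33.5 ± 0.58 CPM (log2 fold change 0.07, edgeR adjusted p = 0.600).

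On the lower side of the small subunit, Mrps21 was at 64.5 ± 2.7 and 60.6 ± 3.4 CPM (log2 fold change −0.09, edgeR adjusted p = 0.528) and Mrps23 at 76.9 ± 2.9 and 72.8 ± 3.7 CPM (log2 fold change −0.08, edgeR adjusted p = 0.569). Mrps27, an RNA-binding protein, and Mrps33 lay at −0.04 each. Of 9 members around the head and the decoding region, with neighbours on the body and platform (Mrps2, Mrps5, Mrps7, Mrps9, Mrps10, Mrps11, Mrps12, Mrps14 and Mrps24), 6 lay above 0 and 3 below, with a median of 0.02, and the sign of 7 changed under at least 1 alternative.

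Variants of Mrpl3, Mrpl44, Mrps14 and Mrps22 orthologs are known from human cardiomyopathy. Mrpl3 was at 72.3, 75.02, 74.8 and 72.7 CPM in WT and at 79.3, 78.9, 77.1 and 74.2 CPM in Flox-labelled libraries, overlapping through library 4, with a log2 fold change of 0.07 (SE 0.03, edgeR adjusted p = 0.450). Mrps22 was at 26.9 ± 0.73 and 28.4 ± 1.4 CPM, a log2 fold change of 0.08 (95% interval −0.02 to 0.18, edgeR adjusted p = 0.600). Mrpl44 and Mrps14 lay at −0.02 each, with intervals of −0.13 to 0.09 for Mrpl44 and −0.10 to 0.07 for Mrps14.

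Mrps18a, Mrps18b and Mrps18c are paralogs that occupy different sites, Mrps18a in the large subunit and the others in the small one. Mrps18c was at 23.5 ± 0.49 and 24.8 ± 1.0 CPM, a log2 fold change of 0.08, Mrps18b lay at 0.04 and Mrps18a at 0.02, and none of the 3 passed the test (lowest edgeR adjusted p = 0.612). Mrps30, the other small-named protein that sits in the large subunit, was at 34.5 ± 1.1 and 36.1 ± 1.2 CPM (log2 fold change 0.07, edgeR adjusted p = 0.622). Mrps36 was at 50.2 ± 2.0 and 50.2 ± 3.6 CPM.

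The subunits were then compared. The median log2 fold change was −0.002 over the large-subunit members and 0.02 over the small-subunit members, a difference of −0.02, and interquartile ranges were 0.07 and 0.08. With Mrps18a and Mrps30 moved to the large subunit and Mrps36 left out, the medians were 0.007 and 0.02. The 30 large-subunit members with a bacterial homolog had a median of −0.01 and the 19 gained in mitochondria 0.03. In the small subunit the order was the other way, 0.02 for 16 members with a bacterial homolog and 0.003 for 13 gained in mitochondria. The large-subunit share of all member counts was 66.8% ± 0.16 in WT and 67.0% ± 0.36 in Flox-labelled libraries (SD, n = 4), and the difference of 0.168 percentage points was smaller than the pooled SD of 0.280. It was 0.0212 without Flox-labelled library 3, 0.277 without Flox-labelled library 4 and 0.286 from sums per kilobase. The shares of single libraries were 66.7%, 66.8%, 66.7% and 67.0% in WT and 67.1%, 66.7%, 67.4% and 66.6% in Flox-labelled libraries, so the highest and the lowest were both Flox-labelled. The 95% Wilson interval was 67.1% to 67.7% in Flox-labelled library 3 and 66.7% to 67.4% in WT library 4, and covers counting error only. By median fold change the large subunit lay lower than the small one, whereas its share of counts was higher in Flox-labelled libraries. The direction thus depended on the measure.

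The members' values shared differences between libraries of the same group. In each library, the median over members of log2(CPM + 0.5) minus the gene's mean over the 8 libraries was taken. For the large subunit it was 0.0002, −0.009, −0.004 and −0.04 in WT libraries 1 to 4 and 0.02, 0.05, 0.03 and −0.08 in Flox-labelled libraries 1 to 4. For the small subunit it was −0.002, 0.001, −0.004 and −0.03 in WT and 0.02, 0.07, −0.0008 and −0.07 in Flox-labelled libraries. In both subunits the highest and the lowest library were thus Flox-labelled libraries 2 and 4, and the WT range lay between them. The medians over all tested genes were 0.0008 to 0.003.

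Flox-labelled library 4 held the lowest value of 40 of the 78 members (51.3%, 27 large and 13 small), whereas 15.9% of all tested genes were lowest there. Flox-labelled library 2 held the highest value of 25 members (32.1%), against 12.5% of all tested genes. Without Flox-labelled library 4, 57 members lay above 0 and 21 below, the medians were 0.03 for the large and 0.05 for the small subunit, and 1 member, Mrpl57, was called higher, where 0.911% of 15593 tested genes were called. Without Flox-labelled library 2, 32 lay above 0 and 46 below. Flox-labelled library 4 also had the lowest sum of the 12 cardiomyocyte genes, 49063 CPM against 50174 to 55795 CPM in the others, and the lowest sum of the 13 mitochondrially encoded mRNAs, 55347 CPM against 59265 to 62637 CPM. Its sum of 9 erythroid genes was the highest, 10028 CPM against 4303 to 9405 CPM, as was that of 8 macrophage genes, 112.6 CPM against 69.5 to 100.2 CPM. None of these markers was listed at 0 in all libraries. The part of these differences and of library size in the members' levels was not tested. With the Y-linked sum, which was lower on average in Flox-labelled libraries, added to the design, the median log2 fold change was −0.03 in both subunits, against −0.002 and 0.02 without it. The part of these transcripts in the members' levels was not tested otherwise.

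**Figure D4:**
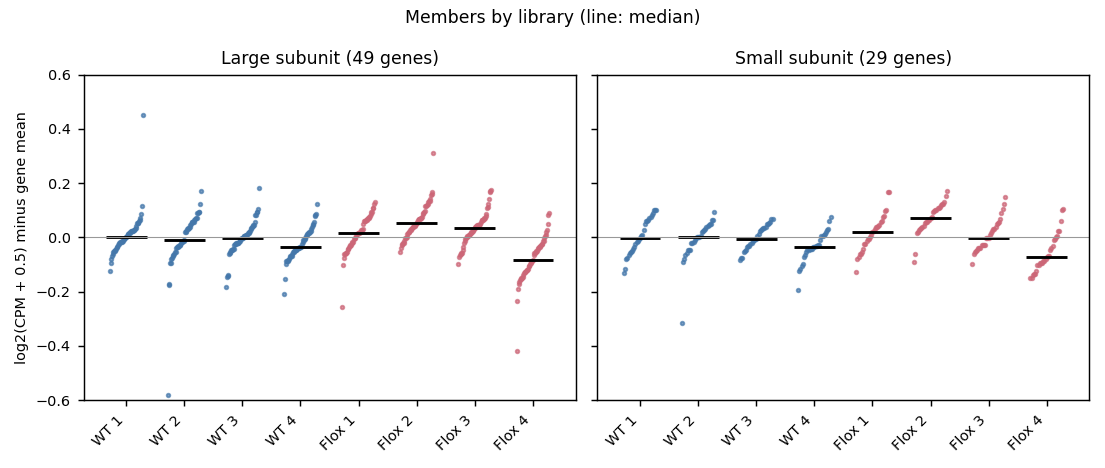
Deviation of each member from its mean over 8 libraries, as log2(CPM + 0.5), in the large subunit (left) and small subunit (right). Points are genes in order of value, black lines are medians, and blue and red mark WT and Flox-labelled libraries. The medians are highest in Flox-labelled library 2 (0.05 and 0.07) and lowest in Flox-labelled library 4 (−0.08 and −0.07).

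Within groups the members were reproducible. The median within-group coefficient of variation was 4.60%, against 6.41% over all tested genes, and ran from 2.11% for Mrpl58, which encodes a peptidyl-tRNA hydrolase built into the large subunit, to 9.34% for Mrpl22. Mrpl23 stood apart at 25.5%. It was at 13.4, 6.31, 11.0 and 10.02 CPM in WT and at 9.30, 12.1, 10.2 and 7.12 CPM in Flox-labelled libraries. Its processed pseudogene Mrpl23-ps1 was at 34.9 ± 4.4 and 36.4 ± 1.7 CPM, with no whole-number count in any library, so reads were divided between these genes. Their sum was at 45.1 ± 3.0 CPM in WT and at 46.1 ± 3.5 CPM in Flox-labelled libraries, with a coefficient of variation of 7.11%. The single value of Mrpl23 is therefore uncertain. Reads may also be divided for Mrpl53, which shares 88.0% of its exonic bases with Gm42688 on the same strand. Gm42688 was however at a mean of 3.26 CPM, against 43.5 ± 0.43 and 44.7 ± 3.4 CPM for Mrpl53. If the strand was not used in counting, the value of Mrps25 is uncertain too, since it shares 69.8% with Nr2c2 on the opposite strand.

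The rest of the mitochondrial translation apparatus showed differences of similar size, apart from the tRNA synthetase Lars2 (log2 fold change 0.45, SE 0.32). Of its genes 0 were called in either direction, where 0.526% of all tested genes were. At an unadjusted p below 0.05, 1 of 5 mitoribosomal proteins with other names, 1 of 13 translation factors, 1 of 25 assembly factors, 0 of 17 tRNA synthetases and 1 of 14 transcription and biogenesis genes passed, where 10.5% of all tested genes did. Aurkaip1, a small-subunit protein named for another role, was at 51.7 ± 1.6 and 47.5 ± 2.2 CPM (log2 fold change −0.12, edgeR adjusted p = 0.277), and Ptcd3, an RNA-binding protein of the small subunit, had 0.06 (edgeR adjusted p = 0.660). Mtfmt, which formylates the initiator methionyl-tRNA, was at 9.98 ± 0.44 and 11.7 ± 1.3 CPM (log2 fold change 0.24, edgeR adjusted p = 0.342), and the initiation factor Mtif2 had −0.05 (edgeR adjusted p = 0.662). Among assembly factors, Mettl17 was at 16.3 ± 0.97 and 14.7 ± 0.12 CPM (log2 fold change −0.14, edgeR adjusted p = 0.436), and the rRNA methyltransferase Mrm3 had 0.15 (edgeR adjusted p = 0.540). The tRNA synthetases with the smallest p-values were Pars2 (0.16, edgeR adjusted p = 0.591) and Hars2 (0.08, edgeR adjusted p = 0.602).

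Of the transcription and biogenesis genes, Tfb2m, the mitochondrial transcription factor that opens promoters, was at 33.0 ± 1.2 and 35.7 ± 1.2 CPM (log2 fold change 0.12, edgeR adjusted p = 0.334). The coactivator Ppargc1b had 0.17 (edgeR adjusted p = 0.550). Of the factors whose sites were searched above, Nrf1 lay at 0.01, Gabpa at 0.03 and Yy1 at 0.05, with intervals that all held 0. The median over the list was 0.03. For the 13 mRNAs encoded in the mitochondrial genome, which are the templates of this ribosome, the median was −0.03 and 10 lay below 0. Of these 0 were called, where 0.526% of all tested genes were. At an unadjusted p below 0.05 were 3 of the 13 (23.1%, 1 higher and 2 lower), against 10.5% of all tested genes. Groups did not overlap for 3 of them, all lower, where 2.98% of all tested genes had such groups. mt-Cytb, a subunit of complex III, was at 6628 ± 82 and 6287 ± 233 CPM (log2 fold change −0.08, edgeR adjusted p = 0.298), and mt-Nd4, of complex I, had −0.06 (edgeR adjusted p = 0.391). mt-Co3 went the other way, at 4494 ± 635 and 5112 ± 423 CPM (log2 fold change 0.19, edgeR adjusted p = 0.458). The ribosomal RNAs mt-Rnr1 and mt-Rnr2 had 0.20 (edgeR adjusted p = 0.472) and 0.11 (edgeR adjusted p = 0.568), with the highest value of both in Flox-labelled library 2. Since the libraries were made from polyadenylated RNA, these rRNA counts are not levels of total rRNA.

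**Figure D5:**
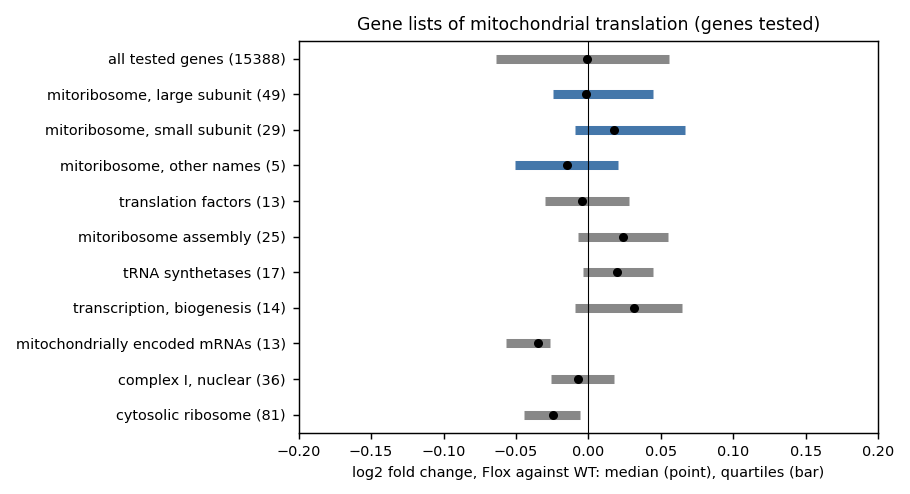
Median (point) and quartiles (bar) of the fitted log2 fold change, Flox-labelled against WT, for the members by subunit (blue), other lists of mitochondrial translation, complex I, the cytosolic ribosome and all tested genes, with the number of genes tested in parentheses. Every median lies between −0.035 for the mitochondrially encoded mRNAs and 0.032 for the transcription and biogenesis genes.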

How the data were processed

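RNA-seq of 4 WT and 4 Flox-labelled ventricle libraries was analysed. Per the labels, poly(A)+ RNA was made into directional libraries and sequenced as single reads. The authors deposited RSEM 1.3.1 expected counts per Ensembl gene (GRCm38, Ensembl release 91 in the table's name), with cutadapt also listed in the submitters' processing notes. RSEM divides a read that matches several genes between them, and 18.1% of values were not whole. Of the 78 members, 27 had no whole value in any library, 21 had some values not whole and 30 had only whole values. Divided reads are therefore not limited to the members called uncertain above. The part of each count that was divided was not measured. The strand setting and aligner are not given in the sources used here. Depth was 16761763 to 24144272 counts per library, with no pair of libraries within sampling noise (chi-square per degree of freedom at least 2.98).

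Counts were rounded, filtered with filterByExpr and scaled by TMM. Groups were compared with edgeR 4.0.16 (glmQLFit, glmQLFTest, two-sided, R 4.3.3), with p-values adjusted by Benjamini-Hochberg over 15388 tested genes and called at an FDR of 0.05. Nothing in the labels says the replicates came from separate litters, so p-values measure the spread between these libraries. GENCODE M21 matched 53360 of 53465 identifiers. Levels per kb used the principal transcript. The code was tested on simulated data, where it recovered 82 of 95 genes changed by 1 and 70 of 99 changed by 0.5 on the log2 scale. Of 160 calls, 8 were false. Changes as small as those of the members were not simulated, so this does not bear on the absence of calls among them.

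The members and lists were chosen with earlier results of these data known. Named were members called, the 5 smallest p-values in each direction and the 3 highest and 3 lowest levels of each subunit, the cardiomyopathy-linked, stalk and Mrps18 members, Mrps30, Mrps36 and, in other lists, the 2 smallest p-values. Mrpl22, Mrpl23, Mrpl36, Mrpl43, Mrpl46, Mrps12, Mrpl53, Mrpl58, Nrf1, Gabpa, Yy1, mt-Co3 and mt-Rnr2 were named besides, some after their values were seen. So were the members listed for the peptide tunnel and its exit, the central protuberance and the head. Alternatives were RLE, upper quartile and total scaling, 2 other filters, the likelihood ratio test, DESeq2 1.42.0, limma 3.58.1 voom, a replicate block, a Y-linked covariate, GC and length correction (lowess span 0.3), removal of mitochondrially encoded, globin, Xist and Y-linked genes, FDR 0.01 and 0.1, another subunit assignment and leaving out each library.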

Additional observations from a re-analysis of the deposited data

Results flagged for a closer look

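Of 116 groups of 4 libraries examined, 2 held a library far from the rest, where chance gives about 5.8. The small-subunit median deviation in WT library 4 was −0.0348 on the log2 scale, against −0.0044 to 0.001 in the other WT libraries. Ptcd3, the small-subunit protein with another name, was at 102.4 CPM in Flox-labelled library 4, against 108.1 to 108.9 CPM in the other Flox-labelled libraries, in the library where most small-subunit members also had low values.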

How the results depend on the processing

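The count of members called higher was 0 and became 4 with no filter, 3 with the likelihood ratio test, 2 at an FDR below 0.1 and 1 without Flox-labelled library 4. It stayed at 0 under the other alternatives, and the count called lower was 0 under all of them. All tested genes called were 81, and 338 with no filter, 242 with the likelihood ratio test, 195 with DESeq2, 190 at FDR 0.1, 16 with the Y-linked covariate, 3 at FDR 0.01 and 11 to 142 when 1 library was left out. Leaving out 1 library gave 0 to 1 members called higher, a large-subunit median of −0.01 to 0.03, a small-subunit median of −0.008 to 0.05 and a difference of −0.0401 to −0.0031. With the Y-linked covariate the small-subunit median was −0.0296 and the difference −0.000944. The Nrg1 log2 fold change was 0.27 to 0.40 when 1 library was left out. The causes were not tested.

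A replicate block gave 93 called genes and 0 called members. Same-numbered libraries had deviations correlated at 0.0998, 0.0474, 0.0447 and 0.121, not all above 0.1, so the libraries are taken to share only a number. Each was above the correlations between differently numbered libraries (−0.0877 to 0.0195), which is a hint from the data and not from the design.

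Of the 78 members, 42 changed sign under at least 1 of 21 alternatives. For members taken by the rule on p-values, levels and roles, those that changed sign follow. With 1 library left out, the values ran from −0.0806 to 0.0035 for Mrpl1, −0.0523 to 0.0173 for Mrpl11, −0.0077 to 0.0736 for Mrpl17, −0.0064 to 0.0746 for Mrpl42, −0.057 to 0.0186 for Mrpl44, −0.0327 to 0.0080 for Mrps14, −0.0389 to 0.019 for Mrps17, −0.0187 to 0.0418 for Mrps18a, −0.0396 to 0.0226 for Mrps25 and −0.0278 to 0.047 for Mrps36. With the Y-linked covariate the value became −0.0114 for Mrpl33, −0.0259 for Mrpl42, 0.0302 for Mrpl44, −0.0081 for Mrps18a and −0.0615 for Mrps36. With GC and length correction Mrps17 and Mrps25 both came to 0.0015. Mrps25 was 0.00077 with RLE scaling, 0.00041 with DESeq2 and 0.0028 with voom, and Mrps36 was −0.0015 with upper quartile scaling and −0.000297 with the replicate block.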

Other observations

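Other large protein complexes were measured in the same libraries. Of 81 tested cytosolic ribosomal protein genes, 65 (80.2%) had a log2 fold change below 0, against 50.6% of all tested genes, with a median of −0.02, and 1 was called higher and 1 lower by edgeR, which called 0.526% of all tested genes. Of 36 nuclear genes for subunits of complex I, the first enzyme of the respiratory chain, 15 lay above 0 and 21 below, with a median of −0.007, and 1 was called higher. Of 10 markers of endothelial cells, in which Cre acts, 0 were called and 8 lay below 0, with a median of −0.09. Their lowest edgeR adjusted p was 0.0584. An unadjusted p below 0.05 was seen for 6, 5 lower and 1, Emcn, higher (log2 fold change 0.18), where 10.5% of all tested genes had one. This was not particular to endothelial markers. Of 6 smooth muscle genes 4 lay below 0 (median −0.12), and 3 had an unadjusted p below 0.05, 2 lower and 1 higher. Of 8 fibroblast genes 6 lay below 0 (median −0.06). Above 0 lay 7 of 12 cardiomyocyte genes (median 0.03, 1 called higher), 8 of 9 erythroid genes (median 0.13) and 5 of 8 macrophage genes (median 0.02).

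Lars2, the mitochondrial leucyl-tRNA synthetase, was the most variable of the tRNA synthetases. It was at 292.2, 481.4, 261.8 and 442.2 CPM in WT and at 370.7, 984.9, 364.6 and 300.1 CPM in Flox-labelled libraries, with its highest value in library 2, where the mitochondrial rRNAs were also highest. The median level of the 17 tRNA synthetases was 26.5 CPM, far below that of Lars2. Whether all reads counted for Lars2 came from its own mRNA was not tested. Lars2 was chosen after its values were seen.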
